A study of Homo sapiens with 20 samples.

Results

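The genes described here are 37 members of the kinetochore and of the spindle checkpoint, taken by their symbols from the count files. They were split by their place into 12 genes of the constitutive centromere, 11 of the outer kinetochore, 4 of the fibrous corona, 4 of the checkpoint and its target, 5 of the inner centromere and 1 of the centriole. The list of genes was chosen with earlier results of these data known. All 37 symbols were found among the 50775 features counted, and all 37 passed the filter on low counts that left 16698 genes for testing. RNA was sequenced from 5 established human cancer lines, each untreated or given torkinib (PP242) for 72 h, with 2 libraries per group and 20 libraries in all. The lines were 94T778 from a well differentiated liposarcoma, the melanoma lines A375 and SKMEL28, and the breast cancer lines SKBR3 and AU565, which are known to come from the same patient. Torkinib was used at 10 µM in 94T778, at 4 µM in A375, SKMEL28 and AU565 and at 0.8 µM in SKBR3, doses that, per the labels, were picked to stop the cell cycle and leave viability as it was. The labels give the untreated libraries no time and name no solvent control, and media differed between lines. Because of the doses, line and dose can be told apart only among A375, SKMEL28 and AU565.

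Torkinib blocks the ATP site of the kinase MTOR, which couples nutrients and growth factors to cell growth and to entry into the cell cycle. The kinetochore is the protein structure that joins each chromosome to the microtubules of the mitotic spindle. It is built on chromatin with the histone variant CENP-A, bound by a constitutive network of CENP proteins. On that network sit the MIS12, KNL1 and NDC80 complexes, the last of which grips the microtubule. The spindle checkpoint holds cells before anaphase while a kinetochore is unattached: MAD1, MAD2 and BUB proteins at the kinetochore turn CDC20 into an inhibitor of the anaphase-promoting complex. The chromosomal passenger complex at the inner centromere releases wrong attachments, and shugoshins guard the cohesion of sister chromatids. Transcripts of many of these genes are known to be made mainly in the G2 and M phases, through promoters with a cell cycle genes homology region, whereas other subunits are made throughout the cycle.

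Each library held between 4040023 and 9737903 counted reads, of which 1792 to 22189 belonged to the 37 genes. Levels of members below are normalised CPM, counts set to a common library total that is scaled by TMM factors. Marker and MALAT1 levels are CPM of the library total, without those factors. Changes are log2 fold changes of torkinib over untreated. Their standard error (SE) is an approximation, the size of the change over the square root of the F of edgeR's test. It can be too small for a steep fall on few counts. The SE of a difference need not follow from the SEs of its 2 lines. Genes were called with edgeR's quasi-likelihood test at a Benjamini-Hochberg adjusted p under 0.05 over all genes tested. The labels do not say whether the 2 libraries of a group came from separate cultures or 1. The p-values measure only how far libraries of a group lie apart, a spread that may be technical. That spread was estimated in a single fit of all groups, but it was uneven between them. The chi-square per gene between the 2 libraries was 12.2 in untreated SKBR3 and from 1.37 to 3.37 in the other groups. SEs and p-values may thus be too small in SKBR3 and too large in the other lines. Markers matched the labels of 94T778, SKMEL28 and the breast lines: genes of the 12q amplicon summed to 11970 and 12150 CPM in untreated 94T778 and to 1010 CPM or less in the other untreated libraries, melanocyte genes to 7612 CPM or more in untreated SKMEL28, and luminal and HER2 genes to 17600 CPM or more in the untreated breast lines. Melanocyte genes summed to 646 and 712 CPM in untreated A375, but their median was 1.03 and 0.936 CPM there, against 494 and 516 in untreated SKMEL28. The lists hold no genes meant to tell SKBR3 from AU565. Blood markers summed to 18.8 CPM or less in every library. A few untreated libraries stood apart: replicate 1 of SKBR3 held 7.63% mitochondrial counts against 4.44% in replicate 2, replicate 2 of SKBR3 held melanocyte markers at 40.7 CPM against 11.9 in replicate 1, and replicate 1 of A375 held 12q genes at 1010 CPM against 816 in replicate 2. Without either SKBR3 library 34 members were lower in SKBR3, and without that A375 library 32 were lower in A375, the same counts as with them.

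Most kinetochore and checkpoint transcripts were lower with torkinib in each line. Called lower were 34 members in 94T778, against 23.8% of all genes tested, 32 each in A375 (24.3%) and SKMEL28 (23.7%), and 34 each in SKBR3 (26.7%) and AU565 (28.6%). The median change of the members was -2.05 for 94T778, -1.50 for A375, -1.60 for SKMEL28, -3.05 for SKBR3 and -3.33 for AU565. All genes tested had medians within 0.02 of 0, where TMM scaling itself places most genes. Changes are thus relative to the bulk of genes, and a change in total RNA per cell cannot be seen. On the average of the 5 lines, 35 members fell, against 28.1% of all genes, with a median of -2.38. In that average MIS12 was the 1 member called higher, where 28.4% of all genes were, and CENPT the 1 member not called. In every line 30 members were called lower, against 4.62% of all genes. In single lines MIS12 was the 1 member called higher, in 94T778 (23.8% of all genes were higher) and in SKBR3 (24.6%); no member was higher in A375 (18.5%), SKMEL28 (20.4%) or AU565 (26.9%).

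A call at any size is common in these data, and a test against a 2-fold change separated the members further. Past 2-fold lower stood 26 members in 94T778 (3.85% of all genes), 20 in A375 (4.93%), 23 in SKMEL28 (3.33%), 27 in AU565 (6.99%) and 28 in SKBR3 (6.67%). In all 5 lines 16 members passed it, against 0.743% of all genes: CENPA, CENPM, CENPW, NDC80, NUF2, SPC24, SPC25, CASC5, ZWINT, SKA1, CENPE, CENPF, CDC20, CDCA8, BIRC5 and SGOL1. Of these, SPC25 and CENPW lost the A375 call with DESeq2 or limma-voom and without untreated replicate 2 or torkinib replicate 1 of A375, SPC25 also without torkinib replicate 2. CENPM lost the SKMEL28 call with DESeq2 and without torkinib replicate 1 of SKMEL28, and SPC24 the 94T778 call with DESeq2. In no line did 6 members pass it: CENPT, MIS12, NSL1, BUB3, MAD1L1 and CENPJ. The 37 genes together took 0.217% of counts in untreated 94T778 and 0.0729% with torkinib. Their share went from 0.240% to 0.104% in A375, from 0.253% to 0.0882% in SKMEL28, from 0.134% to 0.0319% in SKBR3 and from 0.149% to 0.0363% in AU565. Both torkinib libraries lay below both untreated ones for 34 of the 37 members in A375 and SKMEL28 and for 35 in 94T778, SKBR3 and AU565, where 34.2% to 37% of all genes did so. Markers and signs of RNA quality also moved with torkinib. MALAT1, a nuclear RNA, stood at 146 and 194 CPM untreated and 454 and 419 with torkinib in 94T778, and at 99.96 and 126 against 262 and 289 in SKMEL28. It was higher in both torkinib libraries in A375 and AU565 too, and in SKBR3 both lay between the untreated ones. The mitochondrial share stood at 4.66% and 4.11% untreated and 6.32% and 6.2% with torkinib in AU565, was higher with torkinib in SKMEL28 too, was lower in A375 and overlapped or tied in 94T778 and SKBR3. Luminal and HER2 genes summed to 17600 and 17610 CPM untreated and 11300 and 11910 with torkinib in AU565, and to 22440 and 23400 against 13950 and 14020 in SKBR3. Melanocyte genes in SKMEL28 summed to 7612 and 7980 CPM untreated and 11370 and 11560 with torkinib. Their part in the changes of the members was not tested. In RNA from a whole culture, fewer cells that hold a transcript and less of it per cell cannot be told apart.

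**Figure D1:**
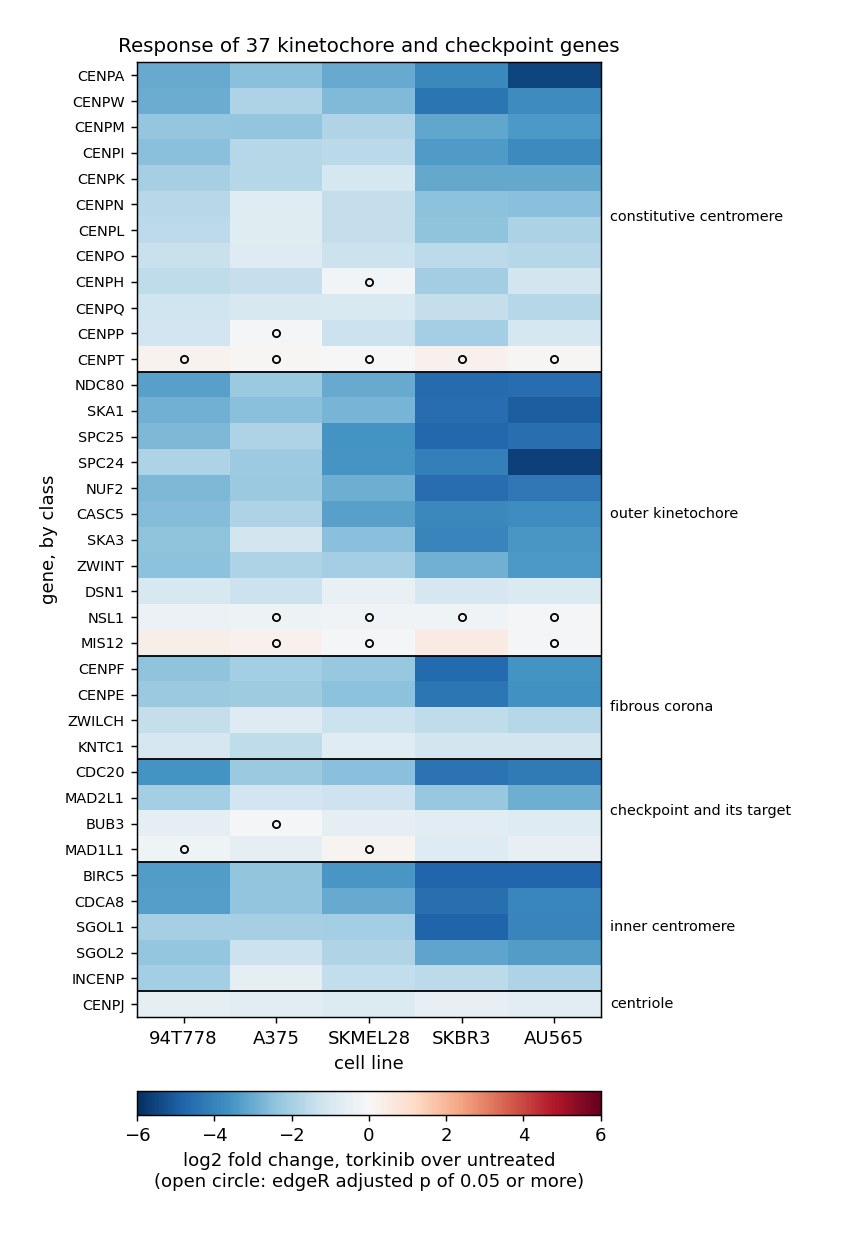
Log2 fold change, torkinib over untreated, for each of the 37 genes (rows, by class) in each line (columns), with an open circle where the edgeR adjusted p was 0.05 or more. Blue fills most rows and is deepest in SKBR3 and AU565, while the rows of CENPT, NSL1 and MIS12 lie near 0; SPC24 in AU565 rests on 1 count.

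Promoter windows of these genes were searched for short words known from cell cycle promoters. RefSeq promoter windows on GRCh38.p14, which run from 250 bases before the annotated start to 50 bases from it, were found for 30 of the 37 members. Searched on both strands were TTTGAA and TTCGAA, cores of the cell cycle genes homology region through which the DREAM and MYBL2-FOXM1 complexes are known to act; CCAAT, the box bound by NF-Y; and TTCCCGC and TTGGCGC, cores of E2F sites. TTCGAA reads the same on both strands, and none of these words contains another. A homology region core lay in 16 of the 30 windows (53.3%), against 16.6% of the windows of 27305 genes. Among the members past 2-fold lower in all 5 lines with a window it lay in 11 of 13 (84.6%), and among the other members in 5 of 17 (29.4%). CCAAT lay in 17 of 30 windows (56.7%), against 35.7% of all, in 9 of those 13 (69.2%) and in 8 of the 17 (47.1%). A homology region core and CCAAT together lay in 11 of 30 (36.7%), against 6.58%. An E2F core lay in 6 of 30 (20%), against 9.33%. These shares describe letters in a window, and are neither binding sites nor a cause.

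These 7 windows are given in full as examples from both ends of the responses. They are in lower case, with homology region cores and CCAAT boxes of either strand in capitals (a reversed box reads ATTGG and a reversed core TTCAAA). Members outside these examples did not all sort by the core. SPC24 and CENPE were past 2-fold lower in all 5 lines with no core in their windows. CENPN, CENPO, SKA3, MAD2L1 and INCENP held a core and were not past 2-fold in every line. The windows of CENPA (chr2:26785806-26786105, plus strand), CENPW (chr6:126339865-126340164, plus strand), NDC80 (chr18:2571307-2571606, plus strand) and CDC20 (chr1:43358731-43359030, plus strand) belong to genes past 2-fold lower in all 5 lines. Those of MIS12 (chr17:5486124-5486423, plus strand), MAD1L1 (chr7:2232896-2233195, minus strand) and CENPT (chr16:67847644-67847943, minus strand) belong to genes past it in none.
CENPA: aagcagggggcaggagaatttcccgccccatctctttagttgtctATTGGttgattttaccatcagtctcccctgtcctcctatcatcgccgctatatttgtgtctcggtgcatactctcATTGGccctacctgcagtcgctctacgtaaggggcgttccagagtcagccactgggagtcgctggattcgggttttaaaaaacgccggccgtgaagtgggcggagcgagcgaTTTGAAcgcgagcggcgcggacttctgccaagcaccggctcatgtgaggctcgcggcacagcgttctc
CENPW: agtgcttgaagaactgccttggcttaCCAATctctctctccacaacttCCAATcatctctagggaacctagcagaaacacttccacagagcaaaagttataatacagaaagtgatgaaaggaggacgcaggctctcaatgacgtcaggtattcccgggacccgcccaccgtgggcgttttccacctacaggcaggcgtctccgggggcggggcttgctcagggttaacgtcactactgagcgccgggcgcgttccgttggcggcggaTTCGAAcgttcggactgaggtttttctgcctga
NDC80: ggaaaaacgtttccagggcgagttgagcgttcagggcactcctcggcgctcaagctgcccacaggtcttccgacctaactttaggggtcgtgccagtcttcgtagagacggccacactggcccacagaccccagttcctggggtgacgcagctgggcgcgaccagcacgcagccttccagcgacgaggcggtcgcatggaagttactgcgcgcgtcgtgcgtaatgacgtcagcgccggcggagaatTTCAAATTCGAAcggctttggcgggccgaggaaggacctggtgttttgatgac
CDC20: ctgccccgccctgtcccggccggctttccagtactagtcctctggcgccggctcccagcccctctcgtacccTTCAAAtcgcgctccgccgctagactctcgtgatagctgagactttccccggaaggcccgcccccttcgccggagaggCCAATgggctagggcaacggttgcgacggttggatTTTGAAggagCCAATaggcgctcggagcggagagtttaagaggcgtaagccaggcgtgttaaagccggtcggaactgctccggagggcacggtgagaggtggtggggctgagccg
MIS12: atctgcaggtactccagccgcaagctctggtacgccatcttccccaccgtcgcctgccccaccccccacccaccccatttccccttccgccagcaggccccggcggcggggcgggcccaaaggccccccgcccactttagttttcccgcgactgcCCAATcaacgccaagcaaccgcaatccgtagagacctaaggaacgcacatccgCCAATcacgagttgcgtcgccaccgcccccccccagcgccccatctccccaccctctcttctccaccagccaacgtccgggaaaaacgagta
MAD1L1: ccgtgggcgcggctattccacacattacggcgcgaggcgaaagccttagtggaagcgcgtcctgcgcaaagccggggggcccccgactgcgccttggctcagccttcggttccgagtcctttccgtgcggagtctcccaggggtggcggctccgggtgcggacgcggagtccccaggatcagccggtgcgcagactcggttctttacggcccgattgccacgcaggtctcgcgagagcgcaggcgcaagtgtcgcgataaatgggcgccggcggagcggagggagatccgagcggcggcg
CENPT: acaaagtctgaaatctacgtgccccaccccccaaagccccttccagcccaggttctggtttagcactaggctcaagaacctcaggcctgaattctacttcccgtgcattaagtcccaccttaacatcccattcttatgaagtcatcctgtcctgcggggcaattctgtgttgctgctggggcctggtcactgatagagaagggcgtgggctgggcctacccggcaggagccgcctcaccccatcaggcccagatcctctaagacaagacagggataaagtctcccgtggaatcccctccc
In the CENPA window the core began at a distance of -18 from the annotated start, with CCAAT boxes at -205 and -130, and in CENPW at 17, with boxes at -224 and -202. In NDC80 one core followed the other directly across the start, at distances of -3 and 3, with no CCAAT box. CDC20 held cores at -178 and -65 and boxes at -100 and -55. MIS12 held boxes at -95 and -42 and no core, and the windows of MAD1L1 and CENPT held neither. The E2F cores of CENPA, at -231, and of MIS12, at -108, are left in lower case.

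**Figure D2:**
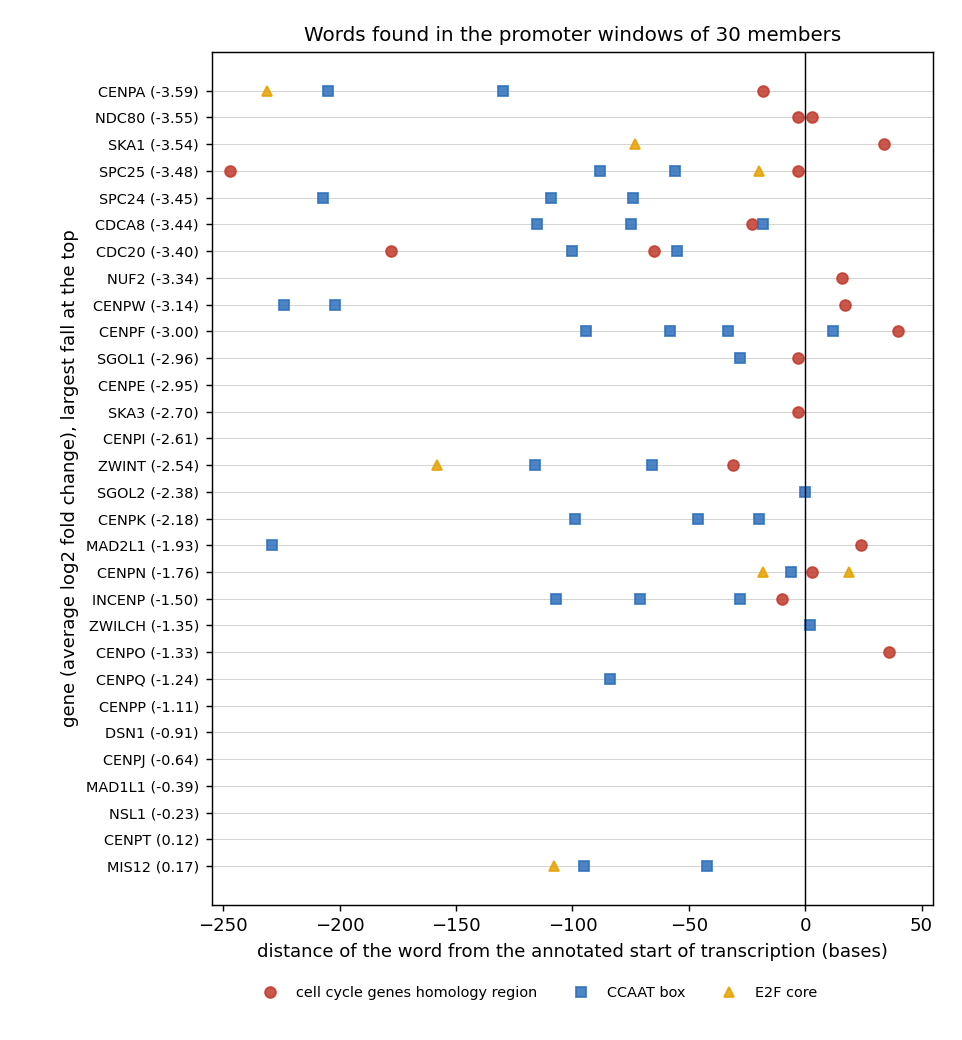
Distance in bases from the annotated start of each homology region core (circles), CCAAT box (squares) and E2F core (triangles) found in the windows of 30 members, ordered from the largest average fall at the top, with that average log2 fold change in brackets. Homology region cores sit mostly in the upper rows, and the rows below CENPO hold none of them, while the MIS12 row holds an E2F core.

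Of the 12 constitutive centromere genes 11 fell on the average, with a class median of -1.69, and the median ran from -1.18 in A375 to -2.45 in SKBR3. CENPA, the histone variant that marks the centromere, had the lowest average of its class and fell by 3.59 (SE 0.12, edgeR adjusted p = 2.79e-25). CENPA stood at 24.4 and 23.04 normalised CPM untreated and 1.77 and 4.03 with torkinib in 94T778, at 22.8 and 20.3 untreated and 4.11 and 3.37 with torkinib in A375 and at 42.04 and 33.8 untreated and 4.37 and 4.74 with torkinib in SKMEL28. For CENPA in the breast lines, the values were 19.9 and 26.3 untreated and 1.59 and 1.595 with torkinib in SKBR3 and 21.5 and 25.9 untreated and 0.571 and 0.4395 with torkinib in AU565. Its untreated and torkinib libraries did not overlap in any line, and both AU565 torkinib libraries lay lowest, resting on 6 counts in all. The change was -2.50 in A375, -3.02 in 94T778 and -3.04 in SKMEL28, and reached -3.86 in SKBR3 and -5.52 in AU565. Without torkinib replicate 2 of 94T778, the higher of its pair, the 94T778 change was -3.73.

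CENPW, the small histone-fold partner of CENPT, fell by 3.14 on the average (SE 0.11), with -1.87 in A375 and -4.37 in SKBR3 as the extremes. CENPT itself, the subunit that reaches from the centromere to the NDC80 complex, was not called in any line. CENPT stood at 35.4 and 40.02 normalised CPM untreated and 42.1 and 45.1 with torkinib in 94T778, at 26.7 and 24.4 untreated and 28.8 and 24.5 with torkinib in A375 and at 23.1 and 20.6 untreated and 25.01 and 17.3 with torkinib in SKMEL28. For CENPT in the breast lines, the values were 51.5 and 34.3 untreated and 53.3 and 48.2 with torkinib in SKBR3 and 29.7 and 25.7 untreated and 29.9 and 28.9 with torkinib in AU565. The libraries of the treatments overlapped in A375, SKMEL28, SKBR3 and AU565, and in 94T778 both torkinib libraries were the higher ones. Its average change was 0.12 (SE 0.07, edgeR adjusted p = 0.13). Without untreated replicate 1 of SKBR3 the SKBR3 change was 0.54 (edgeR adjusted p = 0.000757) and without replicate 2 it was -0.03, and the average was called higher, at 0.18, without replicate 1 and, at 0.16, without torkinib replicate 2 of SKMEL28. Exons of CENPT overlap NUTF2 on the other strand, and reads of the 2 genes cannot be told apart because the sources used here do not give the strand setting of the counting.

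The CENP-H, CENP-I, CENP-K and CENP-M group, an inner block of the network, fell on the average, and CENPH was the 1 gene of it not called in a line. The average change was -2.61 for CENPM, -2.61 for CENPI, -2.18 for CENPK and -1.26 for CENPH (SE 0.08). CENPH stood at 19.5 and 21.7 normalised CPM untreated and 6.95 and 7.56 with torkinib in 94T778, at 73.6 and 71.8 untreated and 25.8 and 30.4 with torkinib in A375 and at 41.1 and 38.95 untreated and 35.8 and 34.5 with torkinib in SKMEL28. For CENPH in the breast lines, the values were 10.7 and 14.7 untreated and 2.78 and 3.19 with torkinib in SKBR3 and 17.4 and 14 untreated and 7.04 and 7.47 with torkinib in AU565. In SKMEL28 the torkinib libraries lay only just below the untreated ones, and CENPH was not called there, with a change of -0.18 (SE 0.11, edgeR adjusted p = 0.213). CENPI rested on 8 counts in SKBR3 with torkinib and 10 in AU565. Its change in SKBR3, -3.42, was -4.53 without torkinib replicate 1 and -2.70 without torkinib replicate 2, and its change in A375, -1.69, was -2.28 without torkinib replicate 2.

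CENPN, which reads the CENP-A nucleosome, and its partner CENPL fell in all 5 lines, with average changes of -1.76 and -1.61. CENPN stood at 58.1 and 56 normalised CPM untreated and 18.6 and 17.8 with torkinib in 94T778, at 49.5 and 49.3 untreated and 29.1 and 30.99 with torkinib in A375 and at 44.8 and 45.3 untreated and 17.7 and 15.04 with torkinib in SKMEL28. For CENPN in the breast lines, the values were 24.1 and 28.01 untreated and 4.97 and 4.47 with torkinib in SKBR3 and 28.8 and 28.95 untreated and 4.76 and 5.27 with torkinib in AU565. In A375 CENPN kept the most, with a change of -0.72 against -2.51 in AU565. CENPO, CENPP and CENPQ, subunits of the peripheral block that recruits PLK1, fell too, with averages of -1.33, -1.11 and -1.24. CENPP stood at 10.1 and 11.3 normalised CPM untreated and 4.68 and 5.04 with torkinib in 94T778, at 6.07 and 9.91 untreated and 7.62 and 8.01 with torkinib in A375 and at 11.1 and 11.8 untreated and 5.13 and 4.199 with torkinib in SKMEL28. For CENPP in the breast lines, the values were 6.44 and 6.599 untreated and 1.39 and 1.76 with torkinib in SKBR3 and 2.87 and 3.71 untreated and 1.71 and 1.47 with torkinib in AU565. CENPP was low throughout and was not called in A375, where the libraries of the treatments overlapped (-0.05, edgeR adjusted p = 0.897). Without untreated replicate 2 of A375 that value was 0.36, and with library totals alone it was 0.01. Its call in AU565 (-1.03, edgeR adjusted p = 0.0182) was lost without untreated replicate 2 (adjusted p = 0.102) or torkinib replicate 2 (adjusted p = 0.133) of that line and with DESeq2 (-1.04, adjusted p = 0.0603). The change of CENPQ in SKBR3, -1.42, was -2.37 without torkinib replicate 2, and in AU565, -1.72, it was -2.35 without torkinib replicate 2. Exons of CENPN, CENPO and CENPP overlap genes on the other strand.

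The outer kinetochore split into a large group that fell steeply and a small one near 0. Of its 11 genes 10 fell on the average and MIS12 rose, with a class median of -3.08, running from -1.87 in A375 to -3.96 in SKBR3. All 4 subunits of the NDC80 complex, the microtubule coupler, fell in all 5 lines, with averages of -3.55 for NDC80, -3.48 for SPC25, -3.45 for SPC24 and -3.344 for NUF2. NDC80 stood at 42.4 and 42.4 normalised CPM untreated and 4.17 and 4.66 with torkinib in 94T778, at 43.3 and 43.1 untreated and 9.14 and 9.28 with torkinib in A375 and at 33.2 and 41.5 untreated and 5.13 and 4.06 with torkinib in SKMEL28. For NDC80 in the breast lines, the values were 28.1 and 25.7 untreated and 1.39 and 0.798 with torkinib in SKBR3 and 22.8 and 25.9 untreated and 0.761 and 1.17 with torkinib in AU565. No torkinib library of NDC80 came near an untreated one. The change was -2.23 (SE 0.15) in A375 and -4.63 (SE 0.26) in SKBR3.

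Counts of SPC24 and SPC25, the centromere-side pair of the complex, were few with torkinib in the breast lines. SPC24 had 1 count over both AU565 torkinib libraries against 82 untreated, a ratio of 58.7 with a 95% exact binomial interval of 10.2 to 2340 that covers counting error only. In 94T778, where SPC24 stood at 33.2 and 33.5 normalised CPM untreated, its change was -1.84. In A375 SPC24 fell by 2.20, a value of -2.79 without torkinib replicate 1. For SPC25 the change was -1.86 in A375, -3.60 in SKMEL28 and -4.53 in AU565, the last resting on 6 counts and moving to -6.18 without torkinib replicate 1 and -3.63 without torkinib replicate 2. NUF2, the partner of NDC80 in the microtubule-binding head, fell by 4.58 in SKBR3, a value of -5.42 without torkinib replicate 1 and -3.97 without torkinib replicate 2.

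The other microtubule-facing genes of the class fell in every line as well. CASC5, now named KNL1, the scaffold for the BUB proteins, fell by 3.08 on the average, and ZWINT, its partner, fell by 2.54. ZWINT stood at 197 and 203 normalised CPM in untreated SKBR3, the highest of the lines, and at 30.6 and 24.9 with torkinib. SKA1 and SKA3, subunits of the complex that tracks microtubule ends, had average changes of -3.54 and -2.70. SKA1 rested on 5 counts with torkinib in SKBR3 and on 5 in AU565, and its change in SKBR3, -4.57, was -5.67 without torkinib replicate 2. The change of SKA3 was -1.09 in A375 and -3.96 in SKBR3, where it was -5.53 without torkinib replicate 1 and -3.11 without torkinib replicate 2.

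The MIS12 complex, the bridge between the centromere and the NDC80 complex, held the outer kinetochore genes with the smallest changes. DSN1 fell in all 5 lines, with an average of -0.91, from -0.44 in SKMEL28 to -1.28 in A375. It passed 2-fold in A375 alone and narrowly (edgeR adjusted p = 0.0441), a call lost without any 1 of the A375 libraries or of 3 SKMEL28 libraries (untreated replicate 1 and both torkinib ones) and under every other alternative but RLE factors. MIS12 stood at 45.1 and 48.4 normalised CPM untreated and 62.8 and 54.8 with torkinib in 94T778, at 41.3 and 38.9 untreated and 52.6 and 42.4 with torkinib in A375 and at 32.1 and 35.6 untreated and 33.5 and 29.7 with torkinib in SKMEL28. For MIS12 in the breast lines, the values were 14.9 and 17.5 untreated and 24.2 and 21.9 with torkinib in SKBR3 and 35.2 and 37.1 untreated and 31.8 and 33.99 with torkinib in AU565. The torkinib libraries of MIS12 were the higher pair in 94T778, A375 and SKBR3, overlapped the untreated ones in SKMEL28 and were the lower pair in AU565. MIS12 was called higher in 94T778 (0.33, edgeR adjusted p = 0.00952) and in SKBR3 (0.49, edgeR adjusted p = 0.00649). The 94T778 call was lost without untreated replicate 1 (0.28, adjusted p = 0.108) or torkinib replicate 1 (0.23, adjusted p = 0.154) and with DESeq2 (0.31, adjusted p = 0.0812). By edgeR the SKBR3 call was lost without untreated replicate 1 (0.38, adjusted p = 0.0673) or torkinib replicate 1 (0.42, adjusted p = 0.062). In A375 it was 0.26 (edgeR adjusted p = 0.0587), and was called higher with RLE factors (adjusted p = 0.0498), with library totals (0.32, adjusted p = 0.017) and without torkinib replicate 2 (0.39, adjusted p = 0.0141) or either untreated SKBR3 library.

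NSL1, another subunit, stood at 29.1 and 27.2 normalised CPM untreated and 23.4 and 21.2 with torkinib in 94T778, at 29.7 and 30.4 untreated and 24.4 and 25.1 with torkinib in A375 and at 18.6 and 18.3 untreated and 15.9 and 15.3 with torkinib in SKMEL28. For NSL1 in the breast lines, the values were 16.2 and 18.04 untreated and 13.9 and 15.8 with torkinib in SKBR3 and 18.7 and 19.1 untreated and 18.8 and 16.4 with torkinib in AU565. The torkinib libraries were the lower pair in all lines but AU565, by small amounts. The average change was -0.23 (SE 0.06, edgeR adjusted p = 8.68e-04), and of the single lines NSL1 was called lower in 94T778 alone, at -0.34. That call was lost without untreated replicate 1 (adjusted p = 0.13) or torkinib replicate 2 (adjusted p = 0.152) of 94T778, with library totals alone (adjusted p = 0.122) and with DESeq2 (adjusted p = 0.0984). In A375 NSL1 had -0.28 (edgeR adjusted p = 0.0525), and was called lower with limma-voom (adjusted p = 0.0399) and without untreated replicate 1 (adjusted p = 0.0472) or 2 (adjusted p = 0.0444) of SKBR3.

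All 4 genes of the fibrous corona, the outermost layer on unattached kinetochores, fell in all 5 lines, with a class median of -2.15 on the average. CENPF, a large microtubule-binding protein of the corona and the member with the highest CPM in each untreated line, stood at 293 and 299.5 normalised CPM untreated and 53.8 and 57.3 with torkinib in 94T778, at 438 and 433 untreated and 88.98 and 127 with torkinib in A375 and at 465 and 519 untreated and 107 and 96.5 with torkinib in SKMEL28. For CENPF in the breast lines, the values were 234 and 247 untreated and 8.15 and 10.5 with torkinib in SKBR3 and 271 and 267 untreated and 18.1 and 25.5 with torkinib in AU565. The treatments lay far apart in each line, and the torkinib libraries of the breast lines lay lowest. The change of CENPF was -2.03 (SE 0.11) in A375 and -4.67 (SE 0.15) in SKBR3, which is 4.08-fold and 25.4-fold lower. CENPE, the kinesin that carries chromosomes to the spindle equator, fell by 2.95 on the average. KNTC1 and ZWILCH, subunits of the RZZ complex that recruits dynein, had averages of -1.10 and -1.35. KNTC1 stood at 116 and 124 normalised CPM untreated and 57.9 and 60.2 with torkinib in 94T778, at 147 and 137 untreated and 46.8 and 54.2 with torkinib in A375 and at 144 and 159.7 untreated and 90.2 and 91.7 with torkinib in SKMEL28. For KNTC1 in the breast lines, the values were 28.3 and 28.3 untreated and 13.9 and 12.8 with torkinib in SKBR3 and 40.1 and 43.8 untreated and 16.9 and 21.1 with torkinib in AU565. KNTC1 passed 2-fold in A375 alone, with a change of -1.50. Exons of ZWILCH overlap RPL4 and LCTL on the other strand.

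The checkpoint genes ranged from a steep fall of CDC20 to small changes of MAD1L1 and BUB3. CDC20, the activator of the anaphase-promoting complex that the checkpoint holds back, fell by 3.40 on the average (SE 0.06, edgeR adjusted p = 2.01e-34). CDC20 stood at 193 and 176 normalised CPM untreated and 15.9 and 15.3 with torkinib in 94T778, at 125 and 123 untreated and 26.8 and 25.5 with torkinib in A375 and at 125 and 116 untreated and 21.3 and 21.3 with torkinib in SKMEL28. For CDC20 in the breast lines, the values were 98.9 and 96.9 untreated and 5.17 and 3.99 with torkinib in SKBR3 and 64.2 and 67.8 untreated and 2.28 and 4.395 with torkinib in AU565. Torkinib libraries of CDC20 lay below untreated ones in each line, by 4.73-fold in A375 and 21.6-fold in SKBR3. Its change in AU565, -4.24, was -4.85 without torkinib replicate 2. MAD2L1, which encodes MAD2, the checkpoint protein that binds CDC20, fell by 1.93 on the average, with -1.16 in A375 and -2.92 in AU565.

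MAD1L1, which encodes the MAD1 protein that anchors MAD2 at kinetochores, stood at 42.7 and 38.9 normalised CPM untreated and 31.8 and 36.7 with torkinib in 94T778, at 25.6 and 27.1 untreated and 17.7 and 17.9 with torkinib in A375 and at 70.97 and 63.1 untreated and 73.3 and 73.96 with torkinib in SKMEL28. For MAD1L1 in the breast lines, the values were 41.4 and 35.5 untreated and 22.5 and 22.02 with torkinib in SKBR3 and 26.4 and 25.9 untreated and 19.2 and 18.5 with torkinib in AU565. In SKMEL28 the torkinib libraries were the higher pair, but the change of 0.14 was not called (edgeR adjusted p = 0.208). It was called lower in A375 (-0.57), SKBR3 (-0.78) and AU565 (-0.48). In 94T778 it had -0.25 (edgeR adjusted p = 0.0544), and was called with RLE factors (adjusted p = 0.0402), with limma-voom (adjusted p = 0.0488), without torkinib replicate 2 of 94T778 (-0.36, adjusted p = 0.0291) and without either untreated SKBR3 library.

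BUB3, which carries BUB1 and BUBR1 to KNL1, stood at 152 and 152 normalised CPM untreated and 107 and 105 with torkinib in 94T778, at 152 and 151 untreated and 146 and 144 with torkinib in A375 and at 192 and 189 untreated and 133 and 120.3 with torkinib in SKMEL28. For BUB3 in the breast lines, the values were 112 and 125 untreated and 78.1 and 72.9 with torkinib in SKBR3 and 112 and 119.8 untreated and 70.6 and 65.2 with torkinib in AU565. BUB3 fell in the lines other than A375, with changes from -0.52 to -0.77. In A375 both torkinib libraries lay just below the untreated ones, and the change was -0.06 (SE 0.08, edgeR adjusted p = 0.544).

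**Figure D3:**
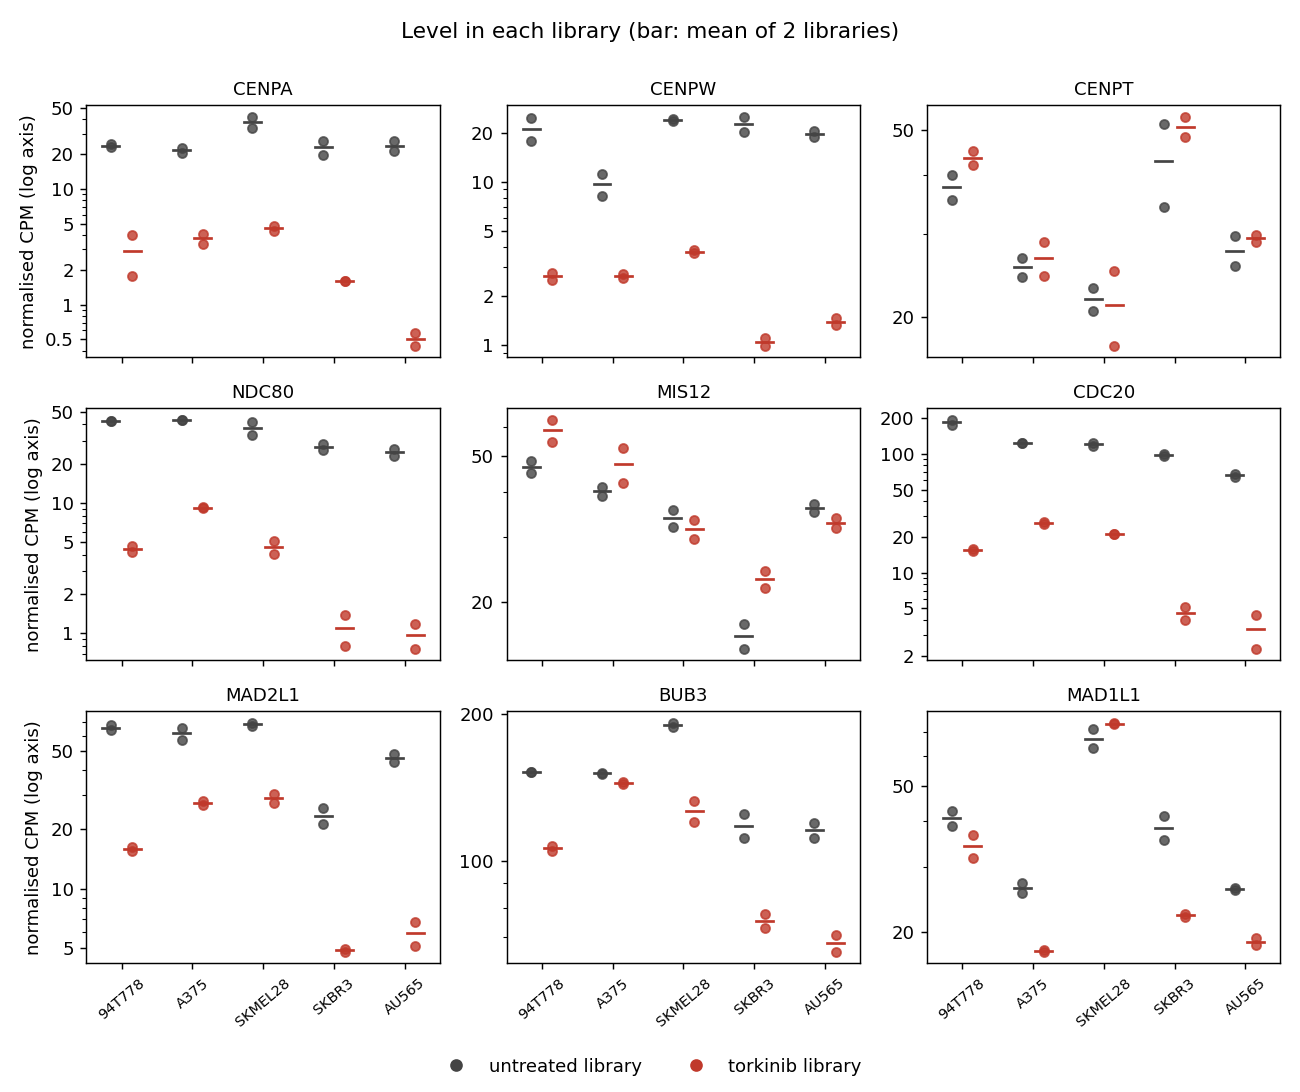
Level of 9 members in each of the 20 libraries as normalised CPM on a log axis, with a dot per library and a bar at the mean of 2. CENPA, CENPW, NDC80, CDC20 and MAD2L1 show separate untreated and torkinib libraries in each line, while CENPT overlaps in every line but 94T778, and torkinib libraries lie higher for MIS12 in 94T778, A375 and SKBR3 and for MAD1L1 in SKMEL28.

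All 5 inner centromere genes fell in all 5 lines, with a class median of -2.96 on the average, running from -2.01 in A375 to -4.53 in SKBR3. BIRC5 (survivin), which brings the chromosomal passenger complex to centromeres, had the lowest average of the 37 genes, at -3.76 (SE 0.07, edgeR adjusted p = 1.95e-32). BIRC5 stood at 115 and 114 normalised CPM untreated and 9.604 and 12.5 with torkinib in 94T778, at 68.3 and 66.5 untreated and 15.2 and 10.1 with torkinib in A375 and at 97.95 and 104 untreated and 9.61 and 7.99 with torkinib in SKMEL28. For BIRC5 in the breast lines, the values were 61.4 and 77.6 untreated and 2.58 and 2.55 with torkinib in SKBR3 and 57.7 and 60.5 untreated and 2.09 and 2.197 with torkinib in AU565. The torkinib libraries of SKBR3 and AU565 lay close together, 27.1-fold and 27.2-fold below untreated, against 5.17-fold in A375. CDCA8 (borealin), its partner, fell by 3.44. INCENP, the scaffold that joins the centromere part to the kinase AURKB, fell by 1.50, the smallest average of its class. INCENP stood at 79.8 and 73.8 normalised CPM untreated and 19.2 and 17.6 with torkinib in 94T778, at 82.1 and 87.98 untreated and 60.2 and 58.4 with torkinib in A375 and at 100.1 and 94.02 untreated and 34.5 and 34.4 with torkinib in SKMEL28. For INCENP in the breast lines, the values were 29.8 and 30.5 untreated and 9.74 and 10.4 with torkinib in SKBR3 and 54.8 and 53.5 untreated and 15.98 and 13.9 with torkinib in AU565. In A375 INCENP kept the most, with a change of -0.52 (SE 0.09), against -2.06 in 94T778.

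The shugoshins SGOL1 and SGOL2 (now SGO1 and SGO2) fell with averages of -2.96 and -2.38. The change of SGOL1 was -2.01 in A375 and -2.02 in SKMEL28, against -4.80 in SKBR3, where 9 counts were left and the change was -5.79 without torkinib replicate 2. Exons of SGOL1 and of MAD2L1 overlap antisense genes, whose reads cannot be told apart from theirs. CENPJ (now CPAP) shares the CENP name but is a centriole protein. CENPJ stood at 22.04 and 25.1 normalised CPM untreated and 14.3 and 18.4 with torkinib in 94T778, at 50.3 and 53.7 untreated and 32.6 and 33.9 with torkinib in A375 and at 56.7 and 61.3 untreated and 32 and 34.4 with torkinib in SKMEL28. For CENPJ in the breast lines, the values were 20.04 and 19.7 untreated and 12.3 and 15.6 with torkinib in SKBR3 and 30.2 and 29.5 untreated and 19.8 and 17.6 with torkinib in AU565. It fell in each line, with changes from -0.84 in SKMEL28 to -0.49 in SKBR3, and its call was lost in 94T778 without untreated replicate 2 (0.0508) or torkinib replicate 1 (0.0789) and in SKBR3 without torkinib replicate 1 (0.133), as edgeR adjusted p.

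Sorted by complex, subunits that bind each other in the finished kinetochore had similar average changes in some complexes and spread ones in others. The NDC80 complex lay close together on the average, with changes from -3.55 to -3.344 over 4 subunits, but not in each line: in 94T778 its subunits ran from -3.26 for NDC80 to -1.84 for SPC24, and in AU565 SPC24 rests on 1 count. Around it, the MIS12 complex ran from -0.91 for DSN1 over -0.68 for PMF1 and -0.23 for NSL1 to 0.17 for MIS12. The CENP-T-W-S-X histone-fold group ran from -3.14 for CENPW over -0.48 for APITD1 (CENP-S) and -0.36 for STRA13 (CENP-X) to 0.12 for CENPT. In the peripheral O-P-Q-U-R block, MLF1IP (CENP-U) had -2.21 and ITGB3BP (CENP-R) -0.15. SKA2 fell by 0.96, less than SKA1 and SKA3, and in the RZZ complex ZW10 fell by 0.39. CENPC1 (CENP-C), a base on which the network assembles, fell by 0.16 on the average and was called lower in 1 of the 5 lines, 94T778. CENPB, which binds a DNA box in centromeric repeats, had -0.07 (edgeR adjusted p = 0.127), with calls lower in 2 lines and higher in 2. Complex membership here is textbook knowledge, and differences between subunits were not tested.

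**Figure D4:**
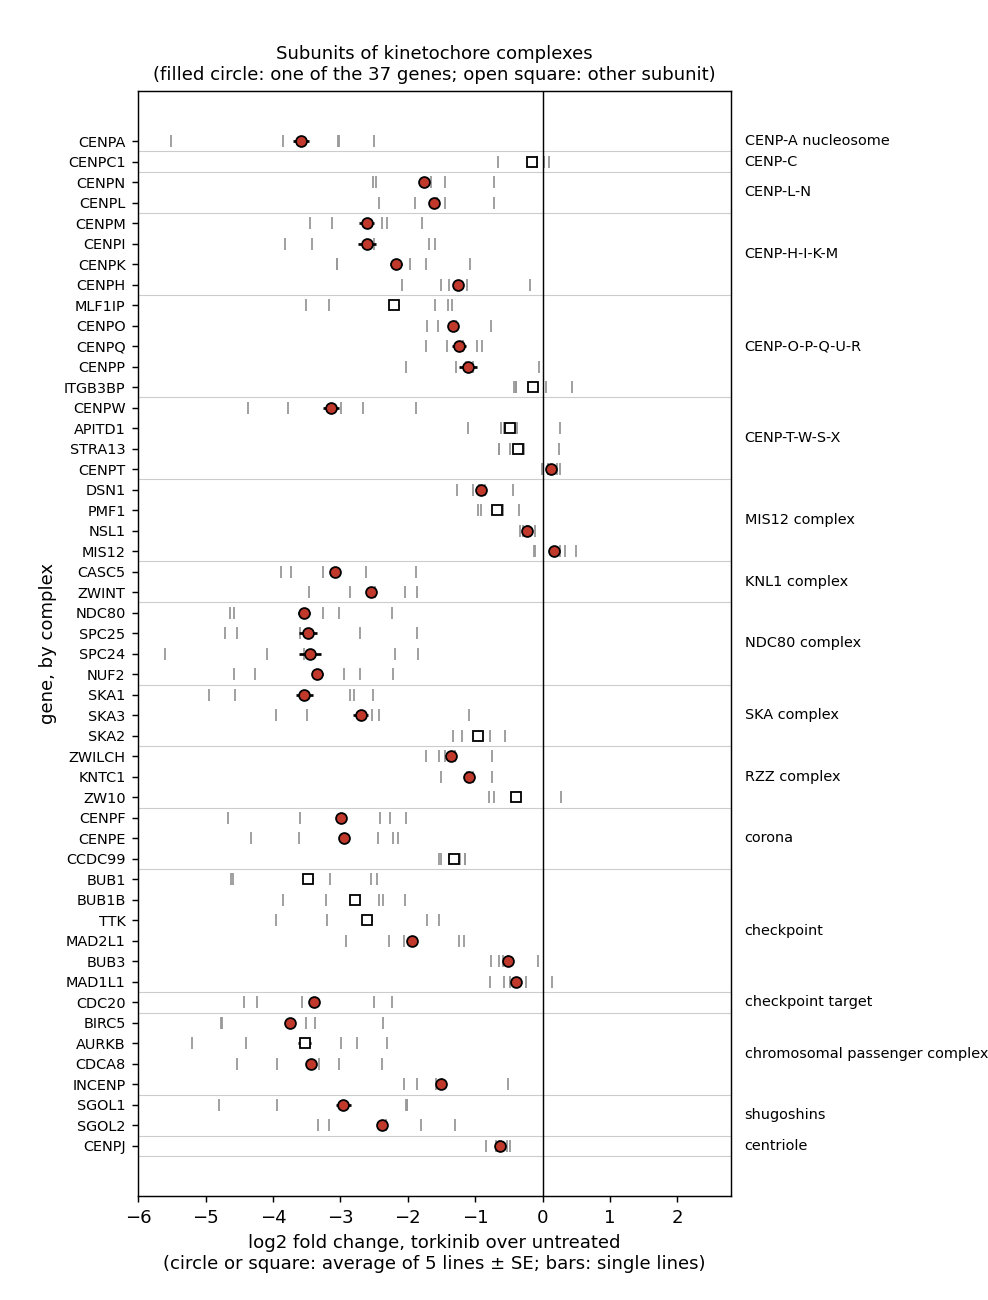
Average log2 fold change over the 5 lines (± SE) of the members (filled circles) and of other subunits (open squares), by complex, with a bar for each line. The 4 subunits of the NDC80 complex lie together near -3.5, while CENPW and CENPT, of 1 complex, lie at -3.14 and 0.12.

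Levels of different genes were compared per kilobase of exon, as normalised CPM per kb. Exon lengths came from GENCODE 29, merged over all coding transcripts of a gene, and may differ from the annotation used for counting. In untreated AU565 NDC80 stood at 11.2 CPM per kb, MIS12 at 12.8, CENPT at 11.6 and CENPA at 16.3. With torkinib the levels were 0.445 for NDC80, 11.7 for MIS12, 12.3 for CENPT and 0.348 for CENPA. NDC80, MIS12 and CENPT, close to each other per kb in untreated AU565, lay far apart with torkinib. CDC20 had the highest untreated level per kb of the checkpoint genes in each line, from 36.1 in AU565 to 101 in 94T778, and BUB3 stood at 14.8 to 24.3. This order rests on the length of 7828 bases taken for BUB3. Without division by length, BUB3 lay above CDC20 in untreated A375, SKMEL28, SKBR3 and AU565 (115.7 against 66.02 normalised CPM in AU565). With torkinib CDC20 in AU565 stood at 1.83 CPM per kb, below BUB3 at 8.67 and MAD1L1 at 5.47 and above MAD2L1 at 1.09.

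The untreated level differed between lines for all 37 members by edgeR's F test, against 96.3% of all genes tested. SKMEL28 held the highest untreated level for 19 members and 94T778 for 11, whereas SKBR3 held the lowest for 21 and AU565 for 8. SKBR3 and AU565, which had the lowest shares of counts in these genes untreated, also had the lowest median changes.

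The size of the response differed between the 5 lines for 33 of the 37 members (edgeR F test of the difference, against 68.4% of all genes). By that edgeR test, not called were CENPQ (adjusted p = 0.146), CENPJ (0.371), CENPT (0.762) and NSL1 (0.812). The change was lowest in SKBR3 for 16 members and in AU565 for 15, and highest in A375 for 23 and in SKMEL28 for 8. By the smallest p, CENPF, CDC20, INCENP and CENPN led, with adjusted p of 4.68e-14, 1.46e-12, 2.29e-11 and 1.40e-09. The order of the members was similar in each pair of lines, with a Spearman rho over the 37 genes of 0.775 for A375 and SKMEL28 up to 0.934 for SKMEL28 and AU565, given as a description because the genes are not independent.

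At the matched dose of 4 µM, changes were lower in AU565 than in the melanoma lines for most members. Against A375, 26 members had a lower change in AU565, DSN1 a higher one and 10 did not pass the test, with a median difference of -1.55 (38% of all genes differed in that pair, with a median of 0.04). The difference for CENPA was -3.02 (SE 0.58), for BIRC5 -2.40 (SE 0.31), for NDC80 -2.36 (SE 0.38) and for CDC20 -2.001 (SE 0.23). DSN1 differed by 0.42 (SE 0.16, edgeR adjusted p = 0.0324) the other way, a call lost with library totals, with no filter, with DESeq2 and without any 1 of 6 libraries (A375 untreated replicates 1 and 2 and torkinib replicate 1, AU565 untreated replicate 1 and torkinib replicates 1 and 2). Against SKMEL28, 24 members had a lower change in AU565, 0 a higher one and 13 did not pass, with a median difference of -0.98 (34.8% of all genes differed). CENPA differed by -2.48, MAD2L1 by -1.68 and CDC20 by -1.74. Both of these comparisons share the AU565 libraries.

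**Figure D5:**
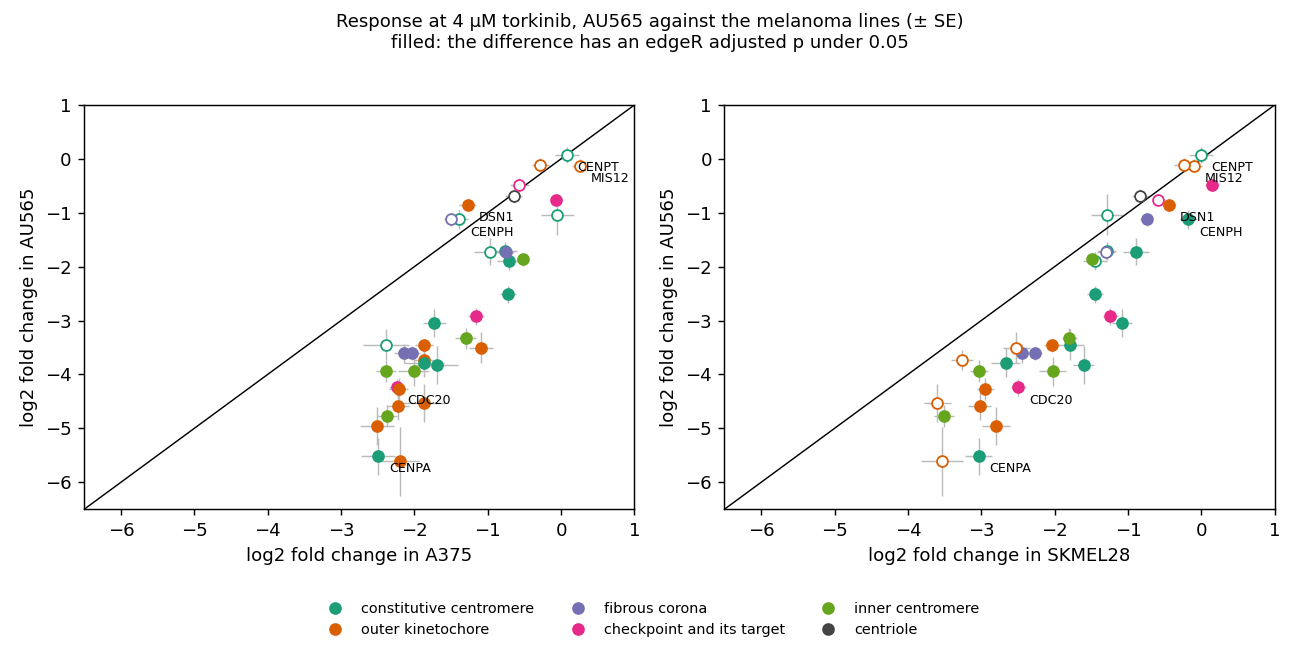
Log2 fold change of each member in AU565 (vertical) against A375 (left) and SKMEL28 (right), all at 4 µM, ± SE, coloured by class and filled where the difference had an edgeR adjusted p under 0.05; the line marks equal change. Most filled points lie below the line, and CENPT and MIS12 lie near 0 on both axes.

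The melanoma lines, also at 4 µM, differed from each other for 20 members, against 28.4% of all genes. The change was higher in A375 for 15 of them, lower for 5, and 17 did not pass, with a median difference of 0.36. Less reduced in A375 were SPC25, by 1.74 (SE 0.42), SKA3, by 1.43, CASC5, by 1.39, SPC24, by 1.34, CENPP, by 1.24, and BIRC5, by 1.14. More reduced in A375 were CENPH, with a difference of -1.21 (SE 0.16), DSN1 (-0.84), KNTC1 (-0.76), MAD1L1 (-0.71) and CENPK (-0.65). The call of SPC25 was lost without torkinib replicate 1 of A375. That of SPC24 was lost with DESeq2 and without that library, untreated replicate 2 of A375, untreated replicate 1 of SKMEL28 or torkinib replicate 2 of SKMEL28. The call of CENPK was lost with DESeq2 and without untreated replicate 1 or torkinib replicate 2 of A375 or replicate 2 of either SKMEL28 group.

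The breast lines differed for 4 members, against 23.8% of all genes, at doses of 0.8 µM in SKBR3 and 4 µM in AU565, so that line and dose cannot be told apart. CENPF had a lower change in SKBR3 by -1.06 (SE 0.23) and CENPH by -0.97 (SE 0.33), while MIS12 and ZWINT had higher ones, by 0.62 and 0.60. The count was 1 without torkinib replicate 1 of SKBR3 and 2 without torkinib replicate 2 of AU565, and CENPF was the 1 member called in each fit tried. CENPH was lost with no filter, DESeq2 and limma-voom too. For the other 33 the test does not show that the lines respond alike: CENPA differed by 1.66 with an SE of 0.71 (edgeR adjusted p = 0.0852).

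Other genes of chromosome segregation and of replication were counted beside these members. Their lists were drawn up by function, but with earlier results of these data known. On the average of the lines 28.1% of all genes tested were lower and 28.4% higher. All 7 checkpoint kinases and shut-off genes fell on the average, with a median of -2.78. PLK1, the mitotic kinase at kinetochores, had an average of -3.78 and BUB1, a checkpoint kinase, of -3.48. BUB1B (BUBR1) had -2.78, TTK (MPS1) -2.61 and AURKB -3.53. All 7 genes of CENP-A loading fell, with a median of -0.84: the CENP-A chaperone HJURP fell by 3.23 and the histone-binding RBBP7 fell by 0.82. Among 12 other centromere and kinetochore genes 9 fell, 2 rose and 1 was not called, with a median of -0.37. MLF1IP and CCDC99 (spindly) had the smallest p, with averages of -2.21 and -1.32. CENPV and BOD1 rose on the average, by 0.80 and 0.23: CENPV had 2.67 in AU565 and -0.73 in A375.

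Downstream of the checkpoint lie the anaphase-promoting complex, which it holds back, and the cohesin ring that separase cuts. Of 17 genes of the anaphase-promoting complex and its partners 10 fell (28.1% of all genes), 3 rose (28.4%) and 4 were not called. The complex and its partners had a median of -0.27. Its E2 enzymes UBE2C and UBE2S fell, with -2.95 and -1.46, and the core subunits CDC16, ANAPC16 and ANAPC2 rose by 0.31, 0.29 and 0.24. Of 11 genes of cohesin and separase 7 fell, STAG1 rose by 0.24 and 3 were not called, with a median of -0.31. PTTG1 (securin), the inhibitor of separase, fell by 3.39, and CDCA5 (sororin), which protects cohesin, fell by 2.93. All 16 genes of the MCM helicase and of origin licensing fell, with a median of -1.86, between those of the constitutive centromere and of the outer kinetochore. CDC6, which loads the helicase, fell by 2.75 and CDC45, which activates it, fell by 3.07. CDT1, its co-loader, was called higher in SKMEL28, by 0.75.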

How the data were processed

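Total RNA of 5 cell lines, untreated or with torkinib, was sequenced, and the authors deposited a table of raw read counts per gene symbol for each of 20 libraries. HISAT2 2.04, HTSeq 0.6.1, limma 3.34.9 and the hg19 build are named, per the submitters' processing notes; the role of each tool, the annotation and whether counting used strand are details that the sources used here do not give. In each library 37.6% to 52.2% of the reads lay in lines that name no gene and were left out. Groups came from the labels. In R 4.3.3, edgeR 4.0.16 kept 16698 genes (filterByExpr), scaled by TMM and fitted 10 group means by quasi-likelihood, with 10 residual degrees of freedom, a common biological coefficient of variation of 0.0547 and Benjamini-Hochberg adjustment; glmTreat tested against 2-fold, and F tests compared lines. The tests were tried on simulated data. Alternatives were RLE factors, library totals, no filter, DESeq2 1.42.0, limma-voom (limma 3.58.1), a replicate block, each line alone and leaving out each library.

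The members and lists were chosen with earlier results of these data known. Values of every library were given for the members with the lowest and highest average in each class, those not called lower in some line and the 4 with the smallest p between lines; other lists gave the 2 genes with the smallest p and those that rose. Other subunits of complexes, BUB1B, TTK, AURKB, TRIP13, MAD2L1BP and CDT1 were named after their values were seen. Symbols are those of the files. Exon lengths and overlaps came from GENCODE 29, and promoters from RefSeq (GRCh38.p14), the first listed window for each gene; no coordinates were converted between builds.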

Additional observations from a re-analysis of the deposited data

Results flagged for a closer look

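The response of 33 members differed between the 5 lines by edgeR's F test of the difference itself, and the distance between the lowest and the highest log2 fold change over the lines is given for each. Both ends of the span lay in A375, SKMEL28 or AU565, all at 4 µM, for CENPA, CENPI, CENPM, CENPN, CENPO, ZWINT and SKA1. The same held for DSN1, ZWILCH, KNTC1, BUB3, MAD2L1, BIRC5 and SGOL2. For the other spans the doses at the ends differed, so that dose and line cannot be told apart. In the constitutive centromere the span was 3.02 for CENPA, 1.91 for CENPH, 2.22 for CENPI, 1.98 for CENPK, 1.71 for CENPL, 1.66 for CENPM, 1.79 for CENPN, 0.951 for CENPO, 1.97 for CENPP and 2.5 for CENPW. In the outer kinetochore it was 2.4 for NDC80, 2.37 for NUF2, 3.77 for SPC24, 2.85 for SPC25, 0.624 for MIS12, 0.837 for DSN1, 2.01 for CASC5, 1.59 for ZWINT, 2.44 for SKA1 and 2.87 for SKA3. For genes of the fibrous corona it came to 2.18 for CENPE, 2.64 for CENPF, 0.758 for KNTC1 and 0.982 for ZWILCH. Among checkpoint genes it amounted to 0.706 for BUB3, 0.927 for MAD1L1, 1.76 for MAD2L1 and 2.19 for CDC20. At the inner centromere the span was 1.54 for INCENP, 2.15 for CDCA8, 2.4 for BIRC5, 2.79 for SGOL1 and 2.03 for SGOL2. The span of SPC24 rests on 1 count in AU565 with torkinib and that of CENPA on 6. The smallest span belonged to MIS12, whose calls in single lines depended on 1 library, and the others came from genes that were lower in each line in which they were called.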

How the results depend on the processing

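Of 452 values of counts of members over all alternatives, 450 lay within 1.5 times the count reported, and no direction of a named result reversed among the average changes tested. The exceptions were members whose response differed between SKBR3 and AU565, 4 in the report, which ranged from 1 to 5 when single libraries were left out, with 1 without torkinib replicate 1 of SKBR3 and 2 without torkinib replicate 2 of AU565. Members lower by over 2-fold in A375 ranged from 15 to 20 over the other fits and from 16 to 21 without single libraries. Of 416 average changes of single members 413 kept their call. The others were CENPT, called higher without untreated replicate 1 of SKBR3 (0.18, edgeR adjusted p = 0.00677), without torkinib replicate 2 of SKMEL28 (0.16, edgeR adjusted p = 0.0354) and with library totals (0.15, edgeR adjusted p = 0.0485). Library totals moved the median of all genes by 0.108 in 94T778, the only such shift over 0.1.

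Labels give replicate numbers but do not say what they share, and same-numbered libraries did not deviate together, with correlations between -0.0551 and 0.0676 over the lines. With a replicate block 34, 32, 32, 34 and 34 members were lower in 94T778, A375, SKMEL28, SKBR3 and AU565, 35 on the average, and 33 differed between lines; members past 2-fold lower in A375 were 19 and those that differed between AU565 and SKMEL28 were 23. Few counts limit the changes of SPC24, SPC25, SKA1 and CENPI in both breast lines, of SGOL1 in SKBR3 and of CENPA in AU565.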
